A study of Mus musculus with 6 samples.

Results

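The 10 genes described here encode enzymes that handle superoxide and peroxides: catalase (Cat), the peroxiredoxins Prdx1 to Prdx6, the glutathione peroxidases Gpx1 and Gpx4, and the superoxide dismutase Sod1. They were taken by gene symbol from the 17060 genes listed in at least 1 culture, and all 10 were listed in all 6 cultures. The cells were BM cells of WT mice depleted of lineage-marked cells, a fraction rich in progenitors, that were cultured with EPO so that they form erythroblasts. NUP-17d, a small-molecule inhibitor of Plek2, or its vehicle DMSO was present for 48 hours, with 3 cultures in each group and the same EPO medium in both. The labels do not say whether the 3 cultures came from separate mice, so p-values measure the spread between these cultures, which may be technical, and they give no age of the mice.

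Hydrogen peroxide is formed when superoxide dismutases act on superoxide. Catalase breaks it down directly, peroxiredoxins reduce it with a reactive cysteine that thioredoxin then restores, and glutathione peroxidases reduce it with glutathione. Maturing red cells carry iron, heme and much oxygen, and catalase, Prdx2 and Gpx1 are the peroxide-removing enzymes for which the mature red cell is best known.

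Deposited expected counts, which are the authors' estimates of reads per gene, summed to between 20076409 and 20419018 per culture, and 12306 genes passed the filter on low counts. The cells carried erythroid transcripts, such as Slc4a1 (band 3), beside the myeloid transcripts Mpo and Lyz2. Hemoglobin genes took 18.3% to 20.3% of the counts in the DMSO cultures and 11.8% to 13.1% in the NUP-17d cultures. Because of this difference in composition, the levels below are normalised read counts (CPM) after scaling by TMM, a method that aligns the bulk of genes between libraries. Scaling by library totals alone moved the median log2 fold change of all tested genes from 0.014 to 0.28, and values under that scaling are to be read against that shift.

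After 48 hours with NUP-17d, transcripts of the most abundant peroxide-removing enzymes were lower. Gpx1 fell by 43.3%, Prdx2 fell by 43.1% and Cat fell by 31.1%. The mitochondrial peroxiredoxin Prdx3 fell by 24.4% and Prdx4, of the endoplasmic reticulum, fell by 15.8%, whereas Prdx1 rose by 15.7%. Prdx5, Prdx6, Gpx4 and Sod1 did not pass the test. Thus 5 of the 10 genes were lower, against 18.9% of all tested genes, and 1 was higher, against 16.4%, by the edgeR quasi-likelihood test at an adjusted p under 0.05. The median log2 fold change was -0.17 over the 10 genes and 0.014 over all tested genes, and the median size of the change was 0.23 and 0.13, respectively. With library totals alone, 4 of the 10 were lower and 5 higher, against 5.34% and 68.7% of all tested genes. Cat, Prdx2, Prdx3 and Gpx1 were lower and Prdx1 was higher under both scalings and under all 14 alternatives. All 19 erythroid markers were also lower in the NUP-17d cultures, and fewer erythroid cells and less RNA per cell cannot be told apart in RNA from whole cultures.

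To compare levels between genes, values per transcript length (FPKM, as deposited) were used. Gpx1 stood far above the other 9 genes, at 2679 to 2724 FPKM in the DMSO cultures, where it ranked 9 among all genes in each culture, and at 1761 to 1960 FPKM in the NUP-17d cultures, where it ranked 14. In the DMSO cultures Prdx2 followed at 552 to 577 FPKM, then Cat at 355 to 366, Sod1 at 266 to 276, Gpx4 at 225 to 244, Prdx1 at 150.4 to 169, Prdx3 at 114 to 123, Prdx6 at 85.8 to 87.1, Prdx5 at 52.9 to 58.4 and Prdx4 at 17.3 to 20.1. No neighbours in this order overlapped in their ranges over the 3 cultures. The order in the NUP-17d cultures was the same except that Sod1, at 307 to 319 FPKM, stood above Cat, at 294 to 303, again with no overlap between neighbours. FPKM carries no correction for the lower hemoglobin share, so it shows the order of genes within a culture and not the change between groups.

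**Figure D1:**
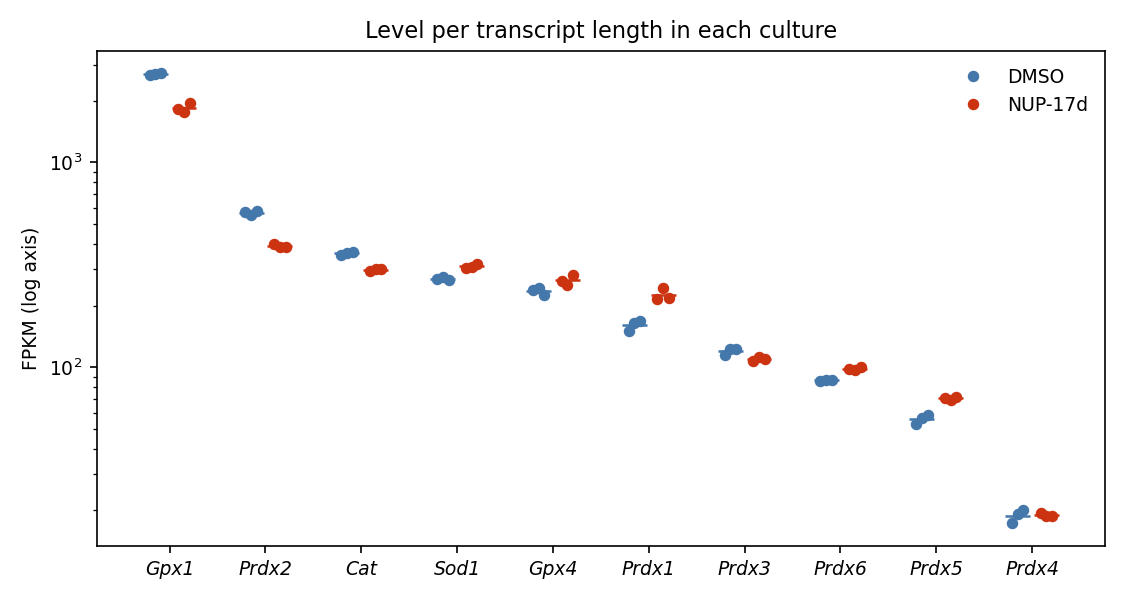
FPKM of each gene on a log axis, with 1 point per culture and a short line at the mean of each group of 3 cultures (blue, DMSO; red, NUP-17d). Gpx1 lies at 2679 to 2724 in the DMSO cultures and at 1761 to 1960 in the NUP-17d cultures, and Prdx4 lies lowest in both groups.

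RefSeq promoter windows (GRCm38.p6, the same build as mm10) were on hand for 9 of the 10 genes, Prdx6 being the exception, and Gpx4 had 4 of the 12 windows. Each window reached from 250 bases before to 50 bases after the annotated start, and both strands were searched for 4 motifs. TGACNNNGC is the core of the antioxidant response element, to which NRF2 binds. AGATAA is read by factors such as the erythroid regulator Gata1. The forkhead factors of the FoxO family read GTAAACA. CCNCNCCC is a loose form of the box read by KLF factors such as the erythroid regulator Klf1. The antioxidant response element core matched in 2 windows, those of Prdx1 and Sod1, compared with 12.4% of all 32851 windows in the table. The KLF letters matched in 11 windows, compared with 49.5% of all windows, and the GATA and FoxO letters in 0, compared with 11.2% and 3.65%. Of the 4 Gpx4 windows, 2 overlap and share the same KLF match, so the windows are not independent. The KLF letters are short and rich in C, and the windows of Prdx2, Cat, Prdx1 and Gpx1 held 68.7%, 62.0%, 60.7% and 47.0% G and C beside a median of 52.7% over all windows. A match describes letters only.

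Shown here are the 250 bases before the start of the gene that rose (Prdx1), of the 3 that changed most (Prdx2, Cat and Gpx1) and of Sod1, which holds the other antioxidant response element match. They are written 5′ to 3′ on the strand of the gene, with matches to the antioxidant response element or KLF letters on either strand in capitals. Prdx1 is on the plus strand at chr4:116685349-116685598, Prdx2 on the plus strand at chr8:84969372-84969621, Cat on the minus strand at chr2:103485154-103485403, Gpx1 on the plus strand at chr9:108338830-108339079 and Sod1 on the plus strand at chr16:90220512-90220761.
Prdx1: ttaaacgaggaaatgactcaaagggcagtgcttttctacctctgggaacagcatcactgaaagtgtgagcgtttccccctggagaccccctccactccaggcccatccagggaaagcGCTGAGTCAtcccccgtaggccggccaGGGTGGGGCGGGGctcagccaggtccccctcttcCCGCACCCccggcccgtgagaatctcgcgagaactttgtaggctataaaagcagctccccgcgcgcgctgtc
Prdx2: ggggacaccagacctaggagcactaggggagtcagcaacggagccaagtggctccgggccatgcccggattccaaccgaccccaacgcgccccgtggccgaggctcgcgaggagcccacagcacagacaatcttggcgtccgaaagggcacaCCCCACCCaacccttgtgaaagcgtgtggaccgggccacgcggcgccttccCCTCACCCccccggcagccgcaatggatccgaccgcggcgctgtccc
Cat: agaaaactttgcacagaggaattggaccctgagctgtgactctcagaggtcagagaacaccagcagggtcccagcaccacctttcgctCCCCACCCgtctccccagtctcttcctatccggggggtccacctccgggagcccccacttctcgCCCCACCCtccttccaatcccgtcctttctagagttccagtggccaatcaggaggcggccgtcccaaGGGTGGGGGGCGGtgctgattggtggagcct
Gpx1: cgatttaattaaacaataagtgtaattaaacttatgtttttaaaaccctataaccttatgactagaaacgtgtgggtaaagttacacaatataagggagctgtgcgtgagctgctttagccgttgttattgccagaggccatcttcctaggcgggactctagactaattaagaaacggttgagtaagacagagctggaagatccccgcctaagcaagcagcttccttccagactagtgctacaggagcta
Sod1: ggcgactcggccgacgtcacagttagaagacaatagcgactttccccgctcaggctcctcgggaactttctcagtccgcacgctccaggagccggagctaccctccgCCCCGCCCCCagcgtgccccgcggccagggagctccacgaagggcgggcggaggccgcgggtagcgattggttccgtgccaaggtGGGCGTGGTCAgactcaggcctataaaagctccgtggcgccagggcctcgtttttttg
In Prdx1 the antioxidant response element core begins 133 bases before the start, as GCTGAGTCA on this strand, and is followed by KLF matches that begin 106, 101 and 72 bases before it. In Sod1 the core begins 56 bases before the start, as GCGTGGTCA, and overlaps a KLF match. Prdx2 holds KLF matches at 98 and 47 bases before the start, and Cat at 162, 98, 31 and 26 bases. Gpx1 holds none in the stretch shown, and its single KLF match lies after the start.

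Gpx1 (gene ID 14775, chr9:108339080-108340342) encodes the selenium-containing peroxidase that reduces hydrogen peroxide in the cytosol and mitochondria at the cost of glutathione. Its level was 3193, 3055 and 3132 CPM in the DMSO cultures and 1733, 1676 and 1909 CPM in the NUP-17d cultures. The highest NUP-17d culture lay far below the lowest DMSO culture. The mean fell from 3127 ± 69.4 to 1773 ± 121 CPM (SD, n = 3 each), a log2 fold change of -0.82 (SE 0.042, adjusted p = 2.0e-14, edgeR). No other gene of the 10 changed more on the log2 scale.

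Prdx2 (gene ID 21672, chr8:84969622-84974811), the abundant cytosolic peroxiredoxin of red cells, showed the same size of change. It stood at 950.1, 869 and 919.6 CPM with DMSO and at 528, 508 and 522 CPM with NUP-17d. The groups were again well apart, with a gap between them larger than the range of either. Means were 913 ± 40.8 and 519 ± 10.2 CPM (SD, n = 3 each), and the log2 fold change was -0.81 (SE 0.037, adjusted p = 1.8e-15, edgeR).

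Cat (gene ID 12359, chr2:103453904-103485153), the heme enzyme catalase, fell by less than Gpx1 and Prdx2. Its level was 1033, 996 and 1028 CPM in the DMSO cultures and 686, 698 and 722 CPM in the NUP-17d cultures, so the groups did not overlap. The means were 1019 ± 20.1 and 702 ± 18.3 CPM (SD, n = 3 each), with a log2 fold change of -0.54 (SE 0.035, adjusted p = 1.6e-12, edgeR). With library totals alone the log2 fold changes of Gpx1, Prdx2 and Cat were -0.55, -0.55 and -0.27, and all 3 still passed the test.

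The peroxiredoxins of the organelles did not move alike. Prdx3 (gene ID 11757, chr19:60864066-60874538), the peroxiredoxin of the mitochondrial matrix, stood at 187, 192 and 193 CPM with DMSO and at 140.4, 145.5 and 146 CPM with NUP-17d, without overlap. Its mean fell from 190.5 ± 3.39 to 144 ± 3.09 CPM (SD, n = 3 each), a log2 fold change of -0.40 (SE 0.035, adjusted p = 5.3e-10, edgeR). With library totals alone this was -0.14, with an adjusted p of 0.0030 in edgeR.

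Prdx5 (gene ID 54683, chr19:6906697-6910106), found in mitochondria, peroxisomes and cytosol, measured 75.6, 76.9 and 80.5 CPM in the DMSO cultures and 81.1, 78.8 and 83.9 CPM in the NUP-17d cultures. The groups overlapped, since 1 NUP-17d culture lay below the highest DMSO culture. The means were 77.6 ± 2.53 and 81.3 ± 2.53 CPM (SD, n = 3 each), the log2 fold change was 0.065 (SE 0.041) and the adjusted p was 0.22 in edgeR. With library totals alone the value was 0.33 and passed the test. The annotated span of Prdx5 overlaps that of Trmt112 over 409 bases, its expected count was not a whole number in 5 of the 6 cultures, and Trmt112 had a log2 fold change of -0.085, so reads may have been divided between these genes.

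Prdx4 (gene ID 53381, chrX:155323918-155342272), the peroxiredoxin of the endoplasmic reticulum, was the least abundant, with expected counts of 345 to 395 per culture. It stood at 19.1, 20.2 and 21.2 CPM with DMSO and at 17.3, 16.5 and 17.2 CPM with NUP-17d. These groups did not overlap, although the gap between them was smaller than the range of the DMSO cultures. The means were 20.2 ± 1.08 and 17.0 ± 0.42 CPM (SD, n = 3 each), with a log2 fold change of -0.25 (SE 0.064, adjusted p = 0.0034, edgeR). This direction depended on the scaling, being 0.018 with library totals alone (adjusted p = 0.82, edgeR).

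Prdx1 (gene ID 18477, chr4:116685599-116700000), the other main cytosolic peroxiredoxin and a known NRF2 target, was the single gene of the 10 that rose. Its level was 241, 249 and 261 CPM in the DMSO cultures and 276, 309 and 283 CPM in the NUP-17d cultures. The groups did not overlap, and NUP-17d replicate 2 was the highest of the 6. The means were 250.1 ± 10.2 and 289 ± 17.7 CPM (SD, n = 3 each), with a log2 fold change of 0.21 (SE 0.041, adjusted p = 0.00019, edgeR) and of 0.48 with library totals alone. A long noncoding gene, AV051173, overlaps its span over 424 bases and has no row in the files, and expected counts of Prdx1 were not whole in 2 of the 6 cultures.

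Prdx6, Gpx4 and Sod1 showed small differences that did not pass the test. Prdx6 (gene ID 11758, chr1:161240112-161251210), a peroxiredoxin that uses glutathione and also acts on phospholipids, measured 234, 226 and 228 CPM with DMSO and 213, 211 and 224 CPM with NUP-17d. The groups did not overlap, but NUP-17d replicate 3 came close to the DMSO cultures. The log2 fold change was -0.086 (SE 0.035, adjusted p = 0.060, edgeR), with means of 229 ± 4.17 and 216 ± 7.25 CPM (SD, n = 3 each). Without NUP-17d replicate 3 it was -0.12 and passed the test (adjusted p = 0.018, edgeR).

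Gpx4 (gene ID 625249, chr10:80047166-80056439) reduces peroxides of membrane lipids and guards cells against ferroptosis. It stood at 259.8, 252 and 236 CPM with DMSO and at 229, 219 and 252 CPM with NUP-17d. The groups overlapped, because DMSO replicate 3 was the lowest of its group and NUP-17d replicate 3 the highest of its own. The means were 249 ± 12.3 and 233 ± 16.8 CPM (SD, n = 3 each), and the log2 fold change was -0.096 (SE 0.044, adjusted p = 0.094, edgeR). Without DMSO replicate 3 the value was -0.13 and without NUP-17d replicate 3 -0.16, and both passed the test (adjusted p = 0.044 and 0.0050, edgeR).

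Sod1 (gene ID 20655, chr16:90220762-90226333), the copper-zinc enzyme of the cytosol, measured 196, 190.2 and 185 CPM with DMSO and 178, 179 and 189 CPM with NUP-17d, and the groups overlapped. The means were 190.4 ± 5.31 and 182 ± 6.01 CPM (SD, n = 3 each), with a log2 fold change of -0.068 (SE 0.036, adjusted p = 0.16, edgeR). Prdx6, Gpx4 and Sod1 changed sign with library totals alone, to 0.18, 0.17 and 0.20, and passed the test there as higher, although each lay below the median of 0.28 of all tested genes under that scaling. Over the 10 genes, the groups did not overlap on the TMM scale in 7, beside 46.0% of all tested genes.

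**Figure D2:**
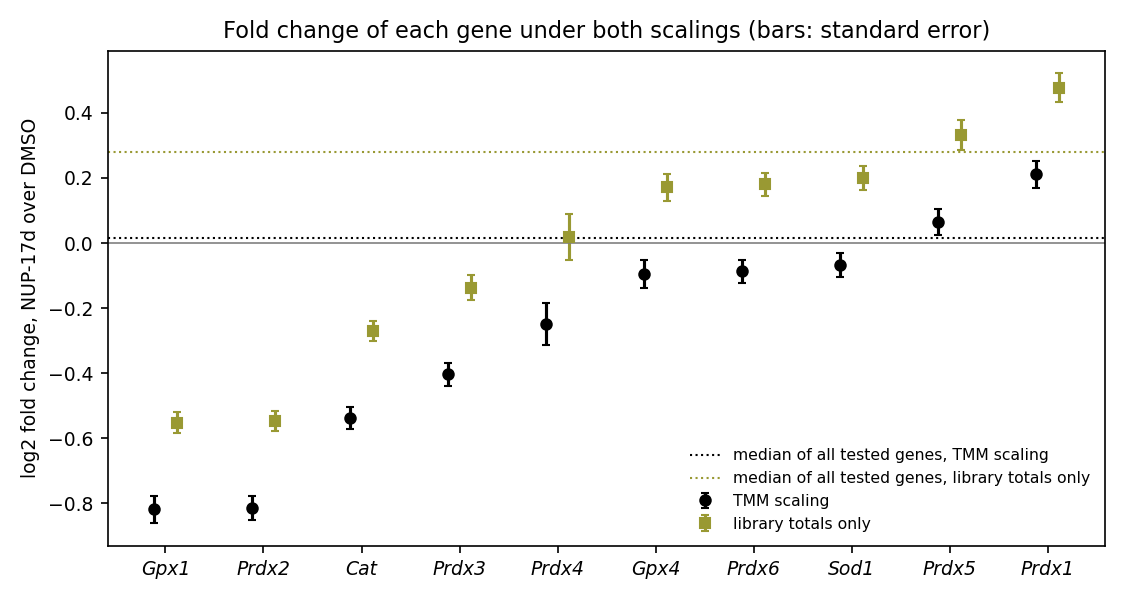
Log2 fold change of NUP-17d over DMSO for each gene with its standard error, fitted in edgeR with TMM scaling (black circles) and with library totals only (olive squares), and the median of all 12306 tested genes under each scaling as a dotted line. Under TMM scaling the values run from -0.82 for Gpx1 to 0.21 for Prdx1, and under library totals Prdx4, Gpx4, Prdx6 and Sod1 lie above 0 but below the median of all tested genes.

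Ratios between 2 genes of the same culture do not depend on how the libraries are scaled. Of the 9 ratios compared, that of the cytosolic peroxiredoxins shifted most: the FPKM of Prdx2 was 3.53 times that of Prdx1 in the DMSO cultures (log2 ratio 1.82 ± 0.10, SD, n = 3) and 1.74 times in the NUP-17d cultures (0.80 ± 0.12). Gpx1 went from 11.4 to 6.93 times Gpx4, from 9.96 to 5.91 times Sod1 and from 7.49 to 6.16 times Cat. Prdx2 went from 2.10 to 1.25 times Sod1 and from 6.56 to 3.96 times Prdx6. Prdx3 went from 2.15 to 1.55 times Prdx5. Cat rose against Prdx2, from 0.634 to 0.767 times, and Sod1 against its mitochondrial counterpart Sod2, from 15.02 to 16.6 times. In all 9 ratios compared the 3 NUP-17d cultures lay apart from the 3 DMSO cultures. Most of these ratios contain Gpx1 or Prdx2, the genes that fell most, so they are not independent. The share of other gene pairs that lay apart was not computed, and 46.0% of all tested single genes did so on the TMM scale. Each 2-sided exact permutation test gave p = 0.1 (0.1 after adjustment over the 9), the smallest value that 3 against 3 allows.

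**Figure D3:**
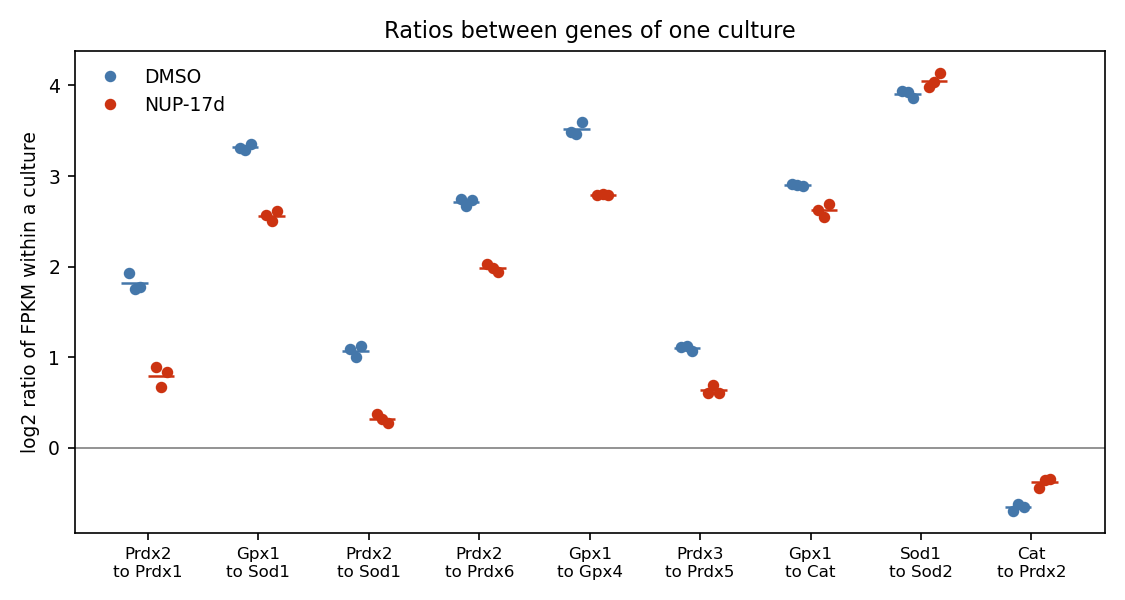
Log2 ratio of FPKM between 2 genes of the same culture, with 1 point per culture and a short line at the group mean (blue, DMSO; red, NUP-17d). The ratio of Prdx2 to Prdx1 falls from a mean of 1.82 to 0.80, and no pair of groups overlaps in any of the 9 ratios.

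The 10 genes together accounted for 6266 ± 132 CPM in the DMSO cultures and 4156 ± 166 CPM in the NUP-17d cultures (SD, n = 3 each), a fall of 33.7%. Gpx1 made up 59.0% of their summed FPKM with DMSO and 50.7% with NUP-17d, and Gpx1, Prdx2 and Cat together 79.3% and 69.7%. Without Gpx1 the summed CPM fell by 24.1%, from 3139 ± 62.7 to 2383 ± 48.1 CPM (SD, n = 3 each). The fall of 33.7% thus weighs the most abundant genes and does not describe each of the 10. As a share of all FPKM in the culture the 10 genes went from 0.669% ± 0.017 to 0.599% ± 0.009 (SD, n = 3 each), with no overlap (2-sided exact permutation p = 0.1, the smallest possible). The summed FPKM of a culture includes the hemoglobin genes, whose share fell, so this fall of 10.4% also depends on the denominator. With the hemoglobin genes left out of the denominator the share went from 1.29% to 0.919%, a fall of 28.6%.

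Relatives of these genes showed their own pattern. Gpx3, the secreted glutathione peroxidase, rose from 17.1 ± 0.523 to 33.4 ± 1.47 CPM (SD, n = 3 each), a log2 fold change of 0.97 (SE 0.059, adjusted p = 4.3e-13, edgeR). Its 3 NUP-17d cultures, at 34.1, 34.3 and 31.7 CPM, all lay well above the DMSO cultures at 17.7, 16.9 and 16.7 CPM. Sod2, the manganese enzyme of mitochondria, went from 76.9 ± 1.06 to 66.4 ± 1.77 CPM (log2 fold change -0.21, SE 0.040), and Ccs, which loads copper onto Sod1, from 20.01 ± 1.18 to 16.0 ± 1.43 CPM (-0.32, SE 0.072). Both passed the test as lower with TMM, but neither did with library totals alone, where Sod2 was at 0.057 and Ccs at -0.054. Gpx2, Gpx5, Gpx7, Gpx8, Sod3 and Prdx6b had too few counts to be tested.

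Thioredoxin returns peroxiredoxins to their reduced form, thioredoxin reductase recharges it, and sulfiredoxin and sestrins act on overoxidised peroxiredoxins or on the signals around them. Of the 13 genes of this system, all tested, 6 were lower, 1 was higher and 6 did not pass the test, with a median log2 fold change of -0.085. Counts in this and the following lists are to be read beside the 18.9% of all tested genes that were lower and the 16.4% that were higher. Txnip, which binds and restrains thioredoxin, fell by 0.83 on the log2 scale (SE 0.035), the mitochondrial reductase Txnrd2 fell by 0.65 (SE 0.045) and Sesn1 fell by 0.50 (SE 0.037). Txnip stood at 272, 268 and 264 CPM with DMSO and at 150.5, 148 and 155 CPM with NUP-17d. Srxn1, the sulfiredoxin, was lower as well (388 to 302 CPM, -0.36), and the cytosolic reductase Txnrd1 was the gene that rose (log2 fold change 0.097, SE 0.036). Txnrd1 was not called by DESeq2 (adjusted p = 0.096) and lost its call when DMSO replicate 1 or 2 or NUP-17d replicate 1 or 2 was left out. Srxn1 and Txnrd1 were chosen for their roles after their values were seen. Scaled by totals alone, 4 of the 13 were lower and 7 higher, beside 5.34% and 68.7% of all tested genes, and those shares apply to the counts by library totals in the lists that follow.

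The glutathione system was split. Of its 14 genes 12 were tested, of which 7 were lower, 3 were higher and 2 did not pass the test, with a median log2 fold change of -0.13. Gss, which completes glutathione synthesis, fell by 0.69 on the log2 scale (SE 0.041), from 134 to 83.2 CPM, and Mgst3, a membrane-bound glutathione transferase with peroxidase activity, fell by 0.67 (SE 0.047), from 122 to 76.7 CPM. Gpx3 was the gene with the largest rise in this list. Gsr, the reductase that recycles glutathione and was named after its value was seen, was also among the 3 that rose, from 156 to 183 CPM (log2 fold change 0.23, SE 0.036). Gclm and Gclc, which had the highest mean CPM of the list and were also named after their values were seen, were lower. Gclm went from 572 to 462 CPM (-0.31) and Gclc from 436 to 396 CPM (-0.14). With library totals alone Gclm was at -0.042 and did not pass, and Gclc was at 0.13 and passed as higher. Of the 12 tested, 2 were lower and 8 higher with library totals alone.

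NADPH feeds both systems. Of 14 genes that supply it, 5 were lower, 4 were higher and 5 did not pass the test, and the median log2 fold change was -0.036. Nadk2, the mitochondrial NAD kinase, fell by 0.53 on the log2 scale (SE 0.036), the mitochondrial folate enzyme Mthfd2 by 0.40 (SE 0.042) and the cytosolic folate enzyme Mthfd1 by 0.29 (SE 0.039), although Mthfd1 was at -0.020 and did not pass with library totals alone. G6pdx, the first enzyme of the pentose phosphate route and named after its value was seen, measured 223 CPM in both groups (log2 fold change -0.001, SE 0.034). With library totals alone G6pdx was at 0.27 and passed as higher, below the median of 0.28 of all tested genes under that scaling. By library totals alone 2 of the 14 were lower and 9 higher, the latter a share no larger than the 68.7% of all tested genes.

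Gpx1, Gpx3, Gpx4 and the thioredoxin reductases contain selenocysteine. Of the 8 genes for its synthesis and insertion, 0 passed the edgeR test in either direction, 0 had an unadjusted p under 0.05 and 0 were called by DESeq2, with a median log2 fold change of 0.045. The 3 with the lowest p-values were Sephs1 at -0.067, Sephs2 at 0.077 and Trnau1ap at 0.16. This count depended on the scaling, since 7 of the 8 were called higher with library totals alone, and by limma on log2 FPKM, and Sephs1 turned to 0.20 with library totals alone.

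Catalase is sorted to peroxisomes in most cells. Of 17 genes for peroxisome import and matrix enzymes, 4 were higher, 1 was lower and 12 did not pass the test, with a median log2 fold change of 0.048. Hsd17b4, a matrix enzyme of fatty acid breakdown, was at -0.15 (SE 0.039) with TMM and at 0.12 with library totals alone. Without DMSO replicate 2 the number higher was 2. Scaled by totals alone, 15 of the 17 were higher and the others did not pass.

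**Figure D4:**
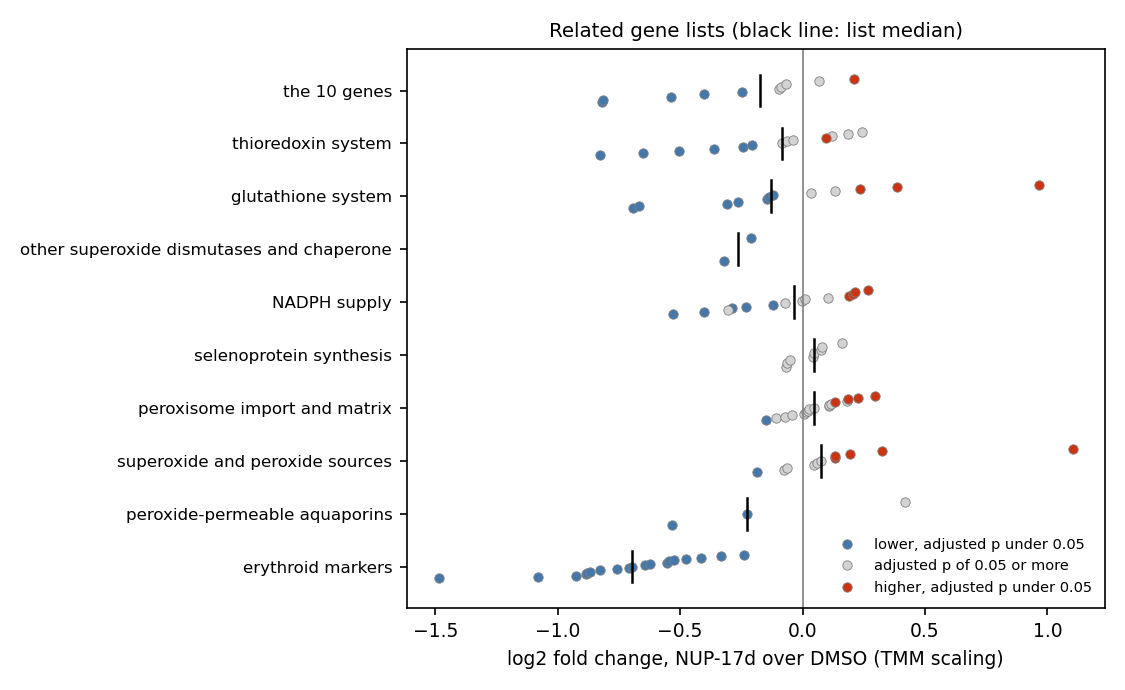
Log2 fold change of NUP-17d over DMSO (TMM scaling) for each tested gene of the lists named at the left, with 1 point per gene, coloured by the edgeR call at an adjusted p under 0.05, and a black line at the list median. All 19 erythroid markers lie below 0 with a median of -0.70, the 10 genes have a median of -0.17 and the peroxisome list one of 0.048.

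Markers of erythroid cells moved with the fall of Gpx1, Prdx2 and Cat. All 19 were lower with TMM, with log2 fold changes from -1.49 to -0.24 and a median of -0.70, and 17 were lower with library totals alone. Their summed level was 223758 to 258101 CPM in the DMSO cultures and 124169 to 138731 CPM in the NUP-17d cultures, and none was at 0. Among them, Slc4a1 fell by 0.71 on the log2 scale, beside 0.82 for Gpx1 and 0.81 for Prdx2, while the erythroid transcription factors Gata1 and Klf1 fell by 0.33 and 0.24, but neither passed the test with library totals alone, where Gata1 was at -0.067 and Klf1 at 0.028. With the hemoglobin genes removed before scaling, the same numbers of the 10 genes passed the test, 5 lower and 1 higher. The part of erythroid cell number or maturation in the lower level of these genes was not tested.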

How the data were processed

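Poly(A)-selected RNA was primed with random hexamers and sequenced on a DNBseq instrument, per the labels, whereas the study's methods name a stranded kit and an Illumina instrument. The authors deposited 1 table per culture with expected counts (estimated reads per gene, not normalized, 27.8% to 28.5% of them not whole) and FPKM (scaled by transcript length and library total). The build mm10 comes from the submitters' processing notes, and the aligner, the counting program and its strand setting are not given in the sources used here. A gene without a row in a culture was taken as 0. The deposited transcript lengths entered no test. Cultures of a group differed by more than counting noise (chi-square per degree of freedom 1.84 to 4.60), so none was counted as a duplicate.

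Expected counts were rounded and fitted in edgeR 4.0.16 (R 4.3.3) with filterByExpr, TMM scaling, the quasi-likelihood test and Benjamini-Hochberg adjustment over all 12306 tested genes, at a threshold of 0.05. SE is the log2 fold change divided by the square root of F. The common biological coefficient of variation was 2.95%. With 3 cultures per group, exact permutation tests (scipy 1.17.1) cannot go below p = 0.1. Alternatives were library totals only, RLE size factors, DESeq2 1.42.0, keeping all genes, dropping the hemoglobin genes, limma 3.58.1 on log2 of FPKM plus a pseudocount of 1 or 0.1, a block for replicate number and omission of single cultures. The fits were also run on simulated counts, but these lacked the hemoglobin shift of the cultures, so that run cannot bear on the choice of scaling.

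The members, the 8 pathway lists and the 7 marker lists were chosen with earlier results of these data known. Named genes are the 10 members, up to 3 genes per pathway list with the lowest p-values, relatives of members by symbol and up to 3 defining markers per marker list; others are said to have been chosen after their values were seen. A few genes that the rule would name are left out. Coordinates and promoters are from RefSeq GRCm38.p6. Protein sequences were not used here.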

Additional observations from a re-analysis of the deposited data

How the results depend on the processing

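Scaling was the choice that mattered. Genes called over all 12306 tested numbered 4346 with TMM, 9115 with library totals only, and 9059 and 9038 with limma on log2(FPKM + 1) and log2(FPKM + 0.1), the latter 2 also without a correction for composition. Under these 3 settings 5 of the 10 genes were called higher. Of the 80 pathway genes tested, 57 were called higher and 9 lower, compared with 17 and 24 with TMM. Over all tested genes, 68.7% were higher and 5.34% lower with library totals alone, compared with 16.4% and 18.9% with TMM. The 2 limma fits called 8423 and 8403 genes higher and 636 and 635 lower. The larger number of pathway genes called higher thus went with the same shift over all tested genes. Changes of sign were sought among the 10 genes, their relatives and the genes of lowest p-value per pathway list. In the order library totals, limma with 1 and limma with 0.1, the log2 fold change changed sign for Prdx4 (0.018, 0.014 and 0.015), Prdx6 (0.18, 0.18 and 0.19), Gpx4 (0.17 in each), Sod1 (0.20 in each), Sod2 (0.057, 0.058 and 0.060), Sephs1 (0.20, 0.19 and 0.20), Hsd17b4 (0.12 in each), Cybb (0.082, 0.084 and 0.085) and Aqp1 (0.039, 0.042 and 0.043). Outside this set, further genes changed sign with library totals alone, and not all are given here. Examples are G6pdx at 0.27, Klf1 at 0.028, Gclc at 0.13, Cd34 at 0.22 and Flt3 at 0.20. Which scaling is nearer to RNA per cell was not tested, as the libraries carry no external standard.

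DESeq2 called 2971 genes, RLE size factors 4345, no filter 4205 and removal of hemoglobin genes 4350, and each gave the same numbers of the 10 genes, 5 lower and 1 higher. Replicate numbers gave at most a weak pairing of the cultures. Deviations of same-numbered cultures correlated at 0.13, 0.094 and -0.0036, a mean of 0.073, against a mean of -0.036 for other pairs. Of the 6 cultures, 3 correlated best with their own number. With the replicate block 4543 genes were called and 6 of the 10 were lower, Prdx6 (-0.087, adjusted p = 0.038, edgeR) being added, and the other 9 kept their calls. Leaving out 1 culture gave 3713 to 4008 genes called, 5 to 7 of the 10 lower and 1 higher. Prdx4, with 345 to 395 counts per culture, was measured least precisely of the 10.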

Other observations

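Sources of superoxide and peroxide differed among themselves. Of 14 genes 11 were tested, of which 5 were higher, 1 was lower and 5 did not pass the edgeR test, beside 16.4% of all tested genes higher and 18.9% lower, with a median log2 fold change of 0.076. With library totals alone 10 of the 11 were higher, beside 68.7% of all tested genes. Cyba, the small membrane subunit of the phagocyte NADPH oxidase, was higher (123 to 141 CPM, 0.19) and its partner Cybb lower with TMM (314 to 276 CPM, -0.19) but at 0.082 with library totals alone. Maoa, a monoamine oxidase that forms hydrogen peroxide, was higher (20.1 to 25.2 CPM, 0.32). Nox4, Duox1 and Duox2 had too few counts to be tested.

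Among the aquaporins listed as permeable to peroxide, 3 of 4 were tested. Aqp9 fell by 0.53 on the log2 scale, from 124 to 85.9 CPM. Aqp1, a water channel of the red cell, went from 249 to 213 CPM (-0.23, and 0.039 with library totals alone). Aqp3 stood under 1 CPM in both groups and did not pass the test (0.42).

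Markers of other lineages were counted with TMM, under which the same shares of all tested genes, 16.4% and 18.9%, apply. Of the 8 megakaryocyte markers 6 were higher, with a median of 0.19, and their summed level was 459 to 505 CPM with DMSO and 532 to 552 CPM with NUP-17d. Of the 8 stem and progenitor markers 3 were higher and 5 did not pass the test, with a median of 0.11. Kit had the largest rise, at 0.19, whereas Cd34 at -0.046 and Flt3 at -0.065 lay below 0 without passing the test. With library totals alone Cd34 was at 0.22 and Flt3 at 0.20, and all 8 passed as higher, beside 68.7% of all tested genes. Of the 11 neutrophil markers 4 were higher and 1 lower, and their sums overlapped, at 4250 to 4409 and 4388 to 4663 CPM, with Mpo at 1756 and 1781 CPM. Of the 11 monocyte and macrophage markers 3 were higher and 4 lower, with a median of -0.052. Their sums were 3106 to 3361 CPM with DMSO and 3433 to 3732 CPM with NUP-17d. Most of each sum was Lyz2, at 2387 and 2700 CPM, so the sums mainly follow that gene and not the list. Of 6 tested mast cell and basophil markers 1 was higher and 2 lower. Of 7 tested lymphoid markers 2 were lower, and that list summed to 27.7 to 33.8 CPM in all cultures.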
